A study of Homo sapiens with 30 samples.

Results

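The genes described here are 45 genes of DNA replication and S phase in HepG2, a human hepatocellular carcinoma line, out of 60675 gene rows in the deposited count table. They were chosen by symbol for their roles, with earlier results of these data known, and matched to the Ensembl identifiers of the table. Their shares of called genes are therefore not those of a list fixed before the data were seen. Each of the 45 passed the filter on low counts that left 16083 genes for testing. The cells had been treated for 24 h with ethanol extracts of herbal formulas, and the comparisons ask whether the genes differed from vehicle and, separately, whether they followed the dose.

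The 30 libraries form 13 groups. Vehicle was DMSO, at 0.1% per the sample labels and 2% per the design text, in 3 libraries. Palmul-tang and Sibjeondaebo-tang had 3 libraries at each of 3 doses, Samul-tang had 2 at each dose and Sagunja-tang had 1 at each dose, where the high dose was 500 µg/mL, the medium dose 100 µg/mL and the low dose 20 µg/mL. Traditionally, the plants of Samul-tang and those of Sagunja-tang together make Palmul-tang, to which Sibjeondaebo-tang adds others. All libraries came from a single cell line, and the labels leave unsaid whether each replicate was its own culture, so the p-values rest on the spread between libraries, which may be technical. No extract library shares the sample-name prefix of the vehicle libraries, so a difference from vehicle and a difference between library sets cannot be told apart. The extract libraries are themselves split by prefix, with Samul-tang grouped with Sagunja-tang and apart from the remaining formulas. Levels compared across that split may therefore also differ by library set, whereas doses of 1 formula share a prefix. The labels place all libraries in 1 batch and leave unsaid what the prefixes stand for.

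DNA replication is prepared in G1, when the origin recognition complex, CDC6 and CDT1 load the MCM helicase onto DNA. At the G1/S transition cyclin E with CDK2 relieves RB's hold on E2F transcription factors, which drive many replication genes, and the loaded helicase is then activated by CDC7 with DBF4, CDC45 and the GINS complex. Polymerases, the PCNA clamp and its RFC loader copy the DNA from deoxynucleotides made by ribonucleotide reductase, and chromatin is rebuilt behind the fork. HepG2 cells divide continuously in culture, so these genes are expressed in a share of the cells at any time. In bulk RNA, fewer cells in S phase and less RNA per cell cannot be told apart.

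The promoters of 5 genes on which the results turn are printed here because a short sequence, which the choice of genes did not use, stands in more of the group's promoters than of all promoters, though not in each: E2F1, E2F2 and MCM3 fell against vehicle, RFC4 fell at the high dose of Sibjeondaebo-tang, and RRM2 did not fall. Each run covers 250 bases before to 50 after the annotated start (RefSeq, GRCh38.p14), written 5′ to 3′ on the gene's strand, with E2F-type strings in capitals.
E2F1 (chr20:33686336-33686635, minus strand): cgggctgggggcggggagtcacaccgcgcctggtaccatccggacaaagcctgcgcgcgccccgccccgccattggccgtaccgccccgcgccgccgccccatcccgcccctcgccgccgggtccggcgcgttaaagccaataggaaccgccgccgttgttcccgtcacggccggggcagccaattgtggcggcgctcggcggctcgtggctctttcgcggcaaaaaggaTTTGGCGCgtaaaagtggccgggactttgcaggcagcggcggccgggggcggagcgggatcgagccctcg
E2F2 (chr1:23531184-23531483, minus strand): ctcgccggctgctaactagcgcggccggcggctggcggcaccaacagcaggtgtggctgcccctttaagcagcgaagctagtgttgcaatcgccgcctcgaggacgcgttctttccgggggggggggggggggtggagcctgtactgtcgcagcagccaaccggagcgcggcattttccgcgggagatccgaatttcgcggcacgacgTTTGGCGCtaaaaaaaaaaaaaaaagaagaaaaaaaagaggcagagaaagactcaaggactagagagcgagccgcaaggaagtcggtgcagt
MCM3 (chr6:52284693-52284992, minus strand): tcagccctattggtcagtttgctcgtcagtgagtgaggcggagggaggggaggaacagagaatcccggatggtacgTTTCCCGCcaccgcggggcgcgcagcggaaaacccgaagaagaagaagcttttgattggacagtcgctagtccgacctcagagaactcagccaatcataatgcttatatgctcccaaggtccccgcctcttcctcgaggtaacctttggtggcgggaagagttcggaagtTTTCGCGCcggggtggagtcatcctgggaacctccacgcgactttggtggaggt
RFC4 (chr3:186806433-186806732, minus strand): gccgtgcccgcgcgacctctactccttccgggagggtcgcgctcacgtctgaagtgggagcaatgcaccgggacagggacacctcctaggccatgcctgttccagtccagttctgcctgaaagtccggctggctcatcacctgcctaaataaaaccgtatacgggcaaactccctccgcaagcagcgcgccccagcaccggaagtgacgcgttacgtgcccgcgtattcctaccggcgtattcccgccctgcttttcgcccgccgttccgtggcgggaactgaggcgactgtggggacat
RRM2 (chr2:10122489-10122788, plus strand): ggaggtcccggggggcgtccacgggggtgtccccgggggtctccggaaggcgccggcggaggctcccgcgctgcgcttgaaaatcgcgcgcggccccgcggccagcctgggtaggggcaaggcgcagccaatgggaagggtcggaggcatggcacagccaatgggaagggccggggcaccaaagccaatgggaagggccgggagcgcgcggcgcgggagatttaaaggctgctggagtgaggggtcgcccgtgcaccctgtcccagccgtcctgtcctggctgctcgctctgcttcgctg

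The strings searched on both strands were TTTCCCGC, TTTGGCGC, TTTGGCGG and TTTCGCGC, and a palindromic stretch can match on both strands. Of the 45 genes, 40 had a promoter in the RefSeq table, and E2F8, CCNE2, MCM4, MCM5 and GINS4 had none. At least 1 E2F-type string stood in 24 of the 40 promoters (60.0%), against 936 of 27305 promoters of all genes (3.43%) and 3 of 20 promoters of a list of mitosis genes (15.0%). The E2F1 and E2F2 promoters each held 1, starting 20 and 42 bases before the start, MCM3 held 2, and RFC4 and RRM2 held none. TTTGAA, the core of the cell cycle homology region of mitosis genes, stood in 2 of the 40 promoters (5.0%), in 12 of 20 of the mitosis list (60.0%) and in 15.4% of all. CCAAT was found in 52.5% of the 40, 70.0% of the mitosis list and 35.7% of all. Of the 24 genes with an E2F-type string, 16 were called lower than vehicle at the high dose of Palmul-tang. Of the 16 without one, 6 were, against 15.6% of all tested genes. The median log2 differences were -0.22 and -0.16. The split was narrower at its low dose, with 17 and 10 called lower (11.7% of all tested genes) and medians of -0.207 and -0.191. It was wider at the medium dose of Samul-tang, with 11 and 1 called lower (9.57%) and medians of -0.137 and -0.0517. That comparison rests on 2 extract libraries that differed widely from each other. With the compared groups fitted alone, 3 of the 45 genes were called lower there. The split was not tested. A match is a run of letters and not a measured binding site.

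Total counts ran from 21570416 to 37707232 per library, and the mitochondrial share was 12.41% to 14.52% with vehicle, 11.22% to 19.68% with extracts. The 10 hepatocyte and HepG2 markers were all above 1 CPM (counts scaled to library size with TMM factors) in every library. Fibroblast markers stood out in 1 library, the low dose of Sibjeondaebo-tang replicate 3, where COL1A1 was at 8.29 CPM (at most 0.615 elsewhere) and VIM at 3.8 CPM (at most 0.0424 elsewhere), and 7 of 12 markers reached 1 CPM against 1 in each other library. Counts of called genes that use this library are given below also without it. The 2 medium-dose libraries of Samul-tang differed more from each other than any other pair of replicates, at 30.9 times the variance of sampling noise against 2.92 to 18.8.

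Against vehicle, most of the genes were lower after the extracts, by a modest amount. The transcription factors E2F1 and E2F2 and the licensing genes ORC1, CDC6 and CDT1 were called lower at each dose of the 3 tested formulas. So were GINS1, GINS4, MCM10, LIG1 and UHRF1. RRM2, CDC7, CCNE2, POLA1, GINS2, DBF4, TYMS, SLBP, POLE2 and CHAF1A were called lower at none. Calls are edgeR quasi-likelihood tests at a Benjamini-Hochberg adjusted p under 0.05 over all tested genes. At the high dose of Palmul-tang 25 of the 45 genes were called lower and 0 higher, where 15.6% of all tested genes were called lower and 16.3% higher. Their median log2 difference was -0.18, against -0.0087 for all tested genes. At the medium dose 26 were lower and 0 higher (10.8% and 11.6% of all tested genes), with a median of -0.16. At the low dose 29 were lower and 1, CDC7, was higher (11.7% and 11.5%), with a median of -0.19.

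Sibjeondaebo-tang gave 30 genes lower and 1 higher at the high dose (16.7% and 19.3% of all tested genes), with a median log2 difference of -0.21. Its medium dose gave 26 lower and 0 higher (14.8% and 15.3%) with a median of -0.18, and its low dose 23 lower and 0 higher (11.5% and 11.5%) with a median of -0.17. Without the low-dose library that held fibroblast markers these 23 were still called, CDC45 was added, and the median was -0.20. Of 16048 tested genes, 1279 were then lower and 1336 higher. Samul-tang, with 2 libraries per dose, gave 26 lower and 0 higher at the high dose (8.69% and 9.82%) with a median of -0.21. At its medium dose 13 were lower and 2, CCNE2 and GINS2, were higher (9.57% and 10.3%), with a median of -0.11. With the compared groups fitted alone, 3 were lower and 0 higher there, and 261 of all tested genes were called. At its low dose 15 were lower and 0 higher (4.79% and 6.47%), with a median of -0.15. The 9 comparisons share the same 3 vehicle libraries and are not independent of each other. The call counts of Samul-tang rest on few libraries: without replicate 3 the high dose gave 15 and the low dose 5, without vehicle replicate 2 the low dose gave 9, and without replicate 2 the medium dose gave 6.

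Looking at libraries rather than tests, 16 of the 45 genes were lower in all 27 extract libraries than in every vehicle library, 0 were higher in all 27, and 29 overlapped (4.97% of all tested genes lay below in this way and 5.25% above). The 16 were E2F1, E2F2, CCNE1, CDT1, ORC1, MCM2, MCM3, MCM6, MCM7, MCM10, GINS4, POLA2, POLD1, POLE, LIG1 and TK1. The mean log2 difference from vehicle over the 45 genes was -0.019 to 0.015 in the 3 vehicle libraries and -0.22 to -0.11 in the 27 extract libraries. The 2 medium-dose Samul-tang libraries, at -0.11 each, were the nearest to vehicle. Across the 45 genes, those with a higher GC content in their transcripts had the more negative differences, with r between -0.43 and -0.61 in the 9 comparisons, against -0.081 to -0.0054 over 15977 tested genes. These are descriptions over genes of the same libraries. With GC content and length fitted as an offset, 26, 25 and 25 genes were called lower from the high to the low dose of Palmul-tang. Sibjeondaebo-tang gave 31, 27 and 22 in that order, and Samul-tang 28, 18 and 19. The offset was fitted over all tested genes, so these counts do not address the relation within the 45.

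**Figure D1:**
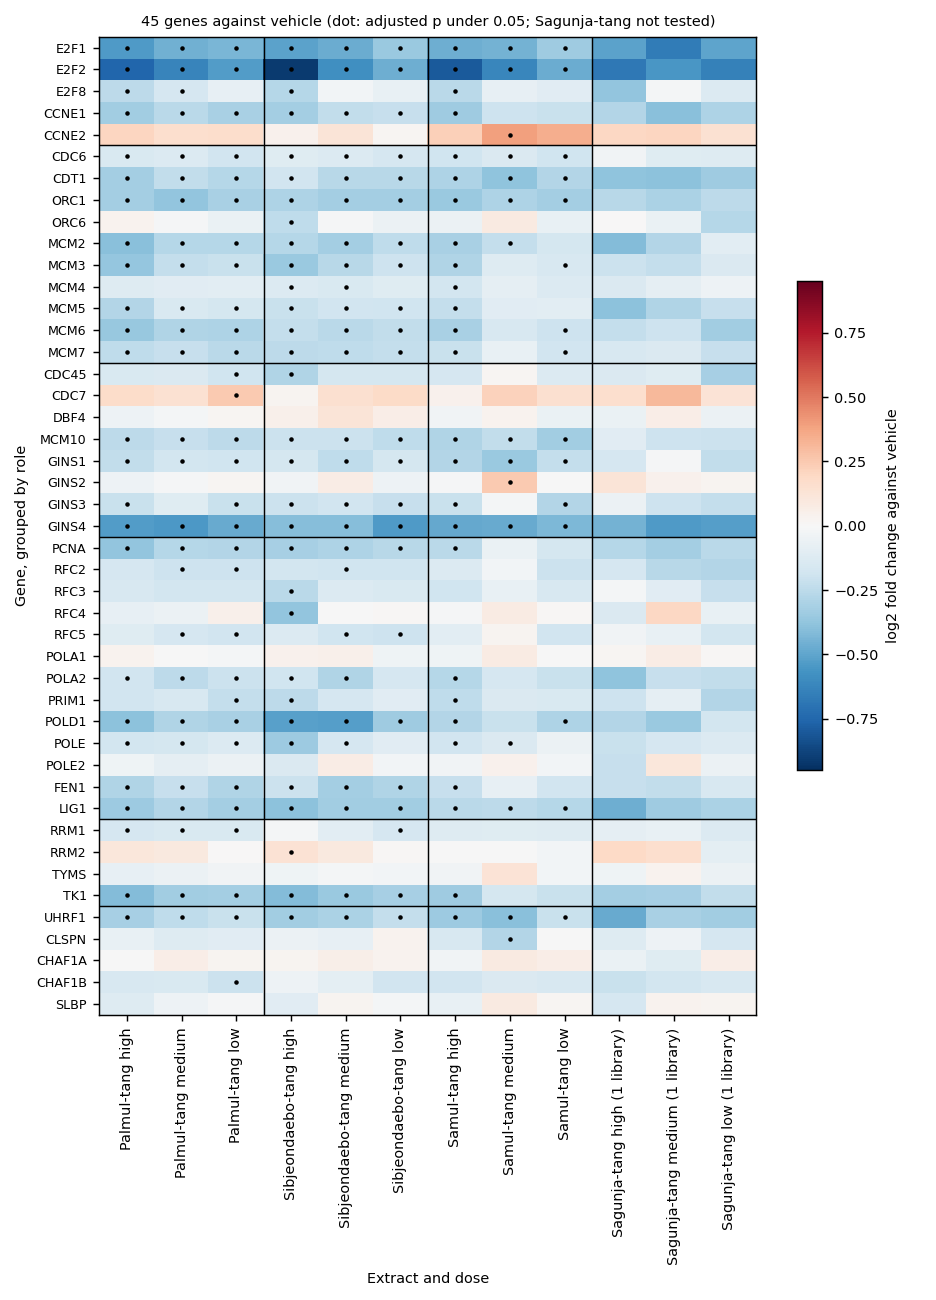
Log2 fold change against vehicle of each of the 45 genes (rows, grouped by role) in the 12 extract groups (columns), with blue for lower and red for higher. Dots mark an adjusted p under 0.05, and Sagunja-tang, with 1 library per dose, was not tested; E2F1, E2F2 and GINS4 are the darkest rows and CCNE2 and CDC7 are red.

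The genes that control the G1/S transition included the largest difference, that of E2F2. E2F1, an activator of replication genes, was at 56.2, 64.5 and 61.4 CPM in the 3 vehicle libraries. Palmul-tang gave high-dose levels of 45, 41 and 39.5, medium-dose levels of 44.7, 46 and 42.1 and low-dose levels of 46.2, 46.6 and 42.4. The Sibjeondaebo-tang libraries showed high-dose levels of 42.4, 43.9 and 41.6, medium-dose levels of 43.9, 43.6 and 44.2 and low-dose levels of 48.3, 46.1 and 48.3. E2F1 was below the lowest vehicle library in every extract library, including Samul-tang with high-dose levels of 43.2 and 44.7, medium-dose levels of 43.9 and 44.9 and low-dose levels of 46.4 and 49.7 and Sagunja-tang with a high-dose level of 42.6, a medium-dose level of 38.1 and a low-dose level of 42.7. The log2 difference ± SE was -0.54 ± 0.055 (adjusted p = 9.66e-09) at the high dose of Palmul-tang, -0.51 ± 0.055 (adjusted p = 1.84e-08) for Sibjeondaebo-tang and -0.47 ± 0.061 (adjusted p = 2.47e-06) for Samul-tang.

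E2F2, a second activator of the family, had nearly equal vehicle levels of 17.6, 17.5 and 17.8 CPM. Palmul-tang libraries showed high-dose levels of 10.6, 10.3 and 10.7, medium-dose levels of 11.3, 11.7 and 11.3 and low-dose levels of 12.1, 13 and 11.4. With Sibjeondaebo-tang it was at high-dose levels of 10.1, 10.2 and 7.93, medium-dose levels of 11.4, 12.3 and 11.8 and low-dose levels of 12.7, 13.1 and 12.5. The vehicle and extract libraries did not overlap, and the lowest value of all was in a high-dose Sibjeondaebo-tang library. With Samul-tang there were high-dose levels of 9.79 and 10.6, medium-dose levels of 9.75 and 13.4 and low-dose levels of 12.5 and 12.9, and Sagunja-tang gave a high-dose level of 11, a medium-dose level of 12 and a low-dose level of 11.3. Log2 differences of the high doses from vehicle were -0.75 ± 0.086 (adjusted p = 8.35e-08) for Palmul-tang, -0.91 ± 0.088 (adjusted p = 2.65e-09) for Sibjeondaebo-tang and -0.80 ± 0.095 (adjusted p = 5.2e-07) for Samul-tang.

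E2F8 is an atypical E2F that represses E2F targets. Its vehicle libraries were at 28.5, 26.6 and 26.7 CPM, those of Palmul-tang at high-dose levels of 22.3, 23.7 and 22.9, medium-dose levels of 24.9, 24.4 and 23.9 and low-dose levels of 24.5, 26 and 26.6, and those of Sibjeondaebo-tang at high-dose levels of 21.4, 22.4 and 24, medium-dose levels of 25.4, 26.8 and 28 and low-dose levels of 25.1, 26 and 26.9. The Samul-tang libraries showed high-dose levels of 22.7 and 22.9, medium-dose levels of 26.7 and 24.8 and low-dose levels of 25.4 and 25.1, and Sagunja-tang a high-dose level of 21, a medium-dose level of 26.8 and a low-dose level of 24.9. The high-dose libraries of all 4 formulas were below every vehicle library, while the low-dose libraries overlapped or came near to vehicle. E2F8 fell at the high doses, by a log2 difference of -0.25 ± 0.056 (adjusted p = 0.00109) for Palmul-tang and -0.27 ± 0.057 (adjusted p = 0.000386) for Sibjeondaebo-tang. At the low doses the differences were -0.081 ± 0.056 (adjusted p = 0.313) and -0.067 ± 0.055 (adjusted p = 0.406), which did not pass the test.

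The cyclins E, the CDK2 partners of the transition, moved apart. CCNE1 fell at the high dose of Palmul-tang with a log2 difference of -0.33 ± 0.066 (adjusted p = 0.000274). CCNE2 was low and variable, at 5.58, 4.98 and 4.73 CPM in vehicle, high-dose levels of 5.49, 6.48 and 5.58, medium-dose levels of 6.42, 5.08 and 5.57 and low-dose levels of 5.95, 6.23 and 5.03 with Palmul-tang, and high-dose levels of 5.75, 5.48 and 4.47, medium-dose levels of 5.87, 5.31 and 5.4 and low-dose levels of 5.12, 5.36 and 4.94 with Sibjeondaebo-tang. In Samul-tang there were high-dose levels of 6.39 and 5.48, medium-dose levels of 7.03 and 6.27 and low-dose levels of 6.46 and 6.49, and Sagunja-tang a high-dose level of 5.83, a medium-dose level of 5.87 and a low-dose level of 5.64. All 6 Samul-tang libraries except 1 high-dose library were above the highest vehicle library, and CCNE2 rose at the medium dose with a log2 difference of 0.39 ± 0.12 (adjusted p = 0.0206). CCNE2 was no longer called there with the compared groups fitted alone. Its estimated counts were not whole in any library, so its reads were shared with other transcripts by estimate.

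Among the 10 origin licensing genes, 8 were called lower at each dose of Palmul-tang. Of all tested genes 15.6%, 10.8% and 11.7% were, from high to low dose. At the high dose of Sibjeondaebo-tang 10 were called lower (16.7% of all tested genes). With Samul-tang 9, 4 and 6 were, from high to low dose (8.69%, 9.57% and 4.79%). ORC1, the largest subunit of the origin recognition complex, was at 33.7, 32.2 and 31.2 CPM in vehicle and high-dose levels of 26.3, 24.4 and 26.8, medium-dose levels of 25.4, 24.7 and 24.7 and low-dose levels of 26.5, 25.7 and 26.1 with Palmul-tang. In Sibjeondaebo-tang there were high-dose levels of 24.9, 27.3 and 27.1, medium-dose levels of 24.7, 25.8 and 27.1 and low-dose levels of 26.7, 25.3 and 25.9. In Samul-tang ORC1 was at high-dose levels of 25 and 25.7, medium-dose levels of 27 and 25.8 and low-dose levels of 26.6 and 25.1, and in Sagunja-tang at a high-dose level of 26.9, a medium-dose level of 26.3 and a low-dose level of 27.3. The levels lay close together in all extract groups and below every vehicle library. The log2 difference from vehicle was -0.31 ± 0.053 (adjusted p = 0.000101) at the low and -0.33 ± 0.054 (adjusted p = 2.46e-05) at the high dose of Palmul-tang.

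CDC6, the ATPase that loads the helicase with ORC, differed by little. Vehicle libraries held 112, 105 and 107 CPM, Palmul-tang libraries high-dose levels of 94.3, 98.6 and 100.0, medium-dose levels of 99.7, 96.7 and 99.4 and low-dose levels of 94.8, 95.6 and 95, and Sibjeondaebo-tang libraries high-dose levels of 99.2, 97.9 and 102, medium-dose levels of 101, 98.8 and 95.6 and low-dose levels of 96.3, 98.9 and 95.1. Samul-tang gave high-dose levels of 97.8 and 91.5, medium-dose levels of 100.0 and 96.1 and low-dose levels of 95.1 and 93.8, and Sagunja-tang a high-dose level of 105, a medium-dose level of 99.9 and a low-dose level of 99.2. The extract libraries lay at or below the lowest vehicle library within rounding, with the high-dose Sagunja-tang library level with it. CDC6 fell at the high dose of Palmul-tang by a log2 difference of -0.14 ± 0.042 (adjusted p = 0.00758) and at that of Sibjeondaebo-tang by -0.11 ± 0.041 (adjusted p = 0.0323). Its loading partner CDT1 fell by -0.32 ± 0.057 (adjusted p = 7.14e-05) and -0.18 ± 0.057 (adjusted p = 0.013) in the same comparisons.

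MCM3, a subunit of the replicative helicase, was at 220.0, 230.0 and 221 CPM in vehicle. It was at high-dose levels of 172, 169 and 180.0, medium-dose levels of 198, 189 and 185 and low-dose levels of 194, 196 and 189 with Palmul-tang. With Sibjeondaebo-tang it was at high-dose levels of 179, 177 and 169, medium-dose levels of 183, 187 and 189 and low-dose levels of 189, 196 and 199. All extract libraries were below vehicle, and the high-dose libraries of Palmul-tang and Sibjeondaebo-tang were below the low-dose ones. With Samul-tang there were high-dose levels of 181 and 186, medium-dose levels of 201 and 210.0 and low-dose levels of 207 and 195, and Sagunja-tang a high-dose level of 194, a medium-dose level of 191 and a low-dose level of 203. The log2 difference from vehicle was -0.36 ± 0.042 (adjusted p = 9.35e-08) at the high dose of Palmul-tang and -0.35 ± 0.042 (adjusted p = 1.41e-07) at that of Sibjeondaebo-tang. The other MCM subunits also fell at the high dose of Sibjeondaebo-tang, with log2 differences of -0.27 for MCM2, -0.13 for MCM4, -0.21 for MCM5, -0.23 for MCM6 and -0.25 for MCM7.

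ORC6, the smallest ORC subunit, was called lower in a single comparison with vehicle. Its vehicle libraries were at 42.3, 44.2 and 43.2 CPM and its Palmul-tang libraries at high-dose levels of 43.9, 43.7 and 45.4, medium-dose levels of 43.3, 44.4 and 41.2 and low-dose levels of 39.7, 44.4 and 40.0. Sibjeondaebo-tang gave high-dose levels of 38.5, 36.1 and 35, medium-dose levels of 42.3, 44.7 and 41.8 and low-dose levels of 40.6, 41 and 43.5. The high-dose libraries of Sibjeondaebo-tang lay below all its low- and medium-dose libraries and below vehicle. The Samul-tang libraries showed high-dose levels of 40.8 and 42.3, medium-dose levels of 44.9 and 46.9 and low-dose levels of 39.6 and 42.6, and Sagunja-tang a high-dose level of 43.3, a medium-dose level of 41.4 and a low-dose level of 35.7. ORC6 fell at the high dose of Sibjeondaebo-tang by a log2 difference of -0.24 ± 0.053 (adjusted p = 0.000606), and its difference at the high dose of Palmul-tang was 0.035 ± 0.053 (adjusted p = 0.66).

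The genes that activate the helicase were split. GINS4, a subunit of the GINS complex, was at 23.3, 26.5 and 22.2 CPM in vehicle and high-dose levels of 16.7, 15.9 and 17.4, medium-dose levels of 16.5, 16 and 16.9 and low-dose levels of 17.8, 17.7 and 16.5 with Palmul-tang. The Sibjeondaebo-tang libraries showed high-dose levels of 18.5, 18.9 and 17.2, medium-dose levels of 18.9, 17.9 and 17.7 and low-dose levels of 16.3, 18 and 15.5. In Samul-tang there were high-dose levels of 17.6 and 16.7, medium-dose levels of 16.1 and 18.7 and low-dose levels of 18.9 and 17, and Sagunja-tang a high-dose level of 17.5, a medium-dose level of 16.4 and a low-dose level of 16.7. Every extract library was below the lowest vehicle library, with no order by dose in these levels. The log2 difference was -0.53 ± 0.072 (adjusted p = 1.36e-06) at the high dose of Palmul-tang and -0.54 ± 0.071 (adjusted p = 4.26e-06) at the low dose of Sibjeondaebo-tang, where it was -0.49 (edgeR adjusted p = 0.000122) without the library with fibroblast markers. GINS1 and GINS3 also fell at the high dose of Palmul-tang, by -0.23 and -0.21, and MCM10, which joins helicase and polymerase, by -0.25. GINS2 had a difference of -0.046 ± 0.058 (adjusted p = 0.579) there and rose at the medium dose of Samul-tang, by 0.25 ± 0.063 (adjusted p = 0.00539). The medium-dose Samul-tang libraries held GINS2 at 74.4 and 62.3 CPM, against at most 61.4 in vehicle. With the compared groups fitted alone GINS2 was not called. Of the origin-firing kinase, the catalytic subunit CDC7 rose at the low dose of Palmul-tang with a log2 difference of 0.25 ± 0.077 (adjusted p = 0.0182), and DBF4, its activator, had one of 0.017 ± 0.069 (adjusted p = 0.894). CDC45, which binds MCM and GINS at the fork, fell at the high dose of Sibjeondaebo-tang with -0.29 ± 0.069 (adjusted p = 0.0015) and had -0.15 ± 0.068 (adjusted p = 0.1) at that of Palmul-tang.

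**Figure D2:**
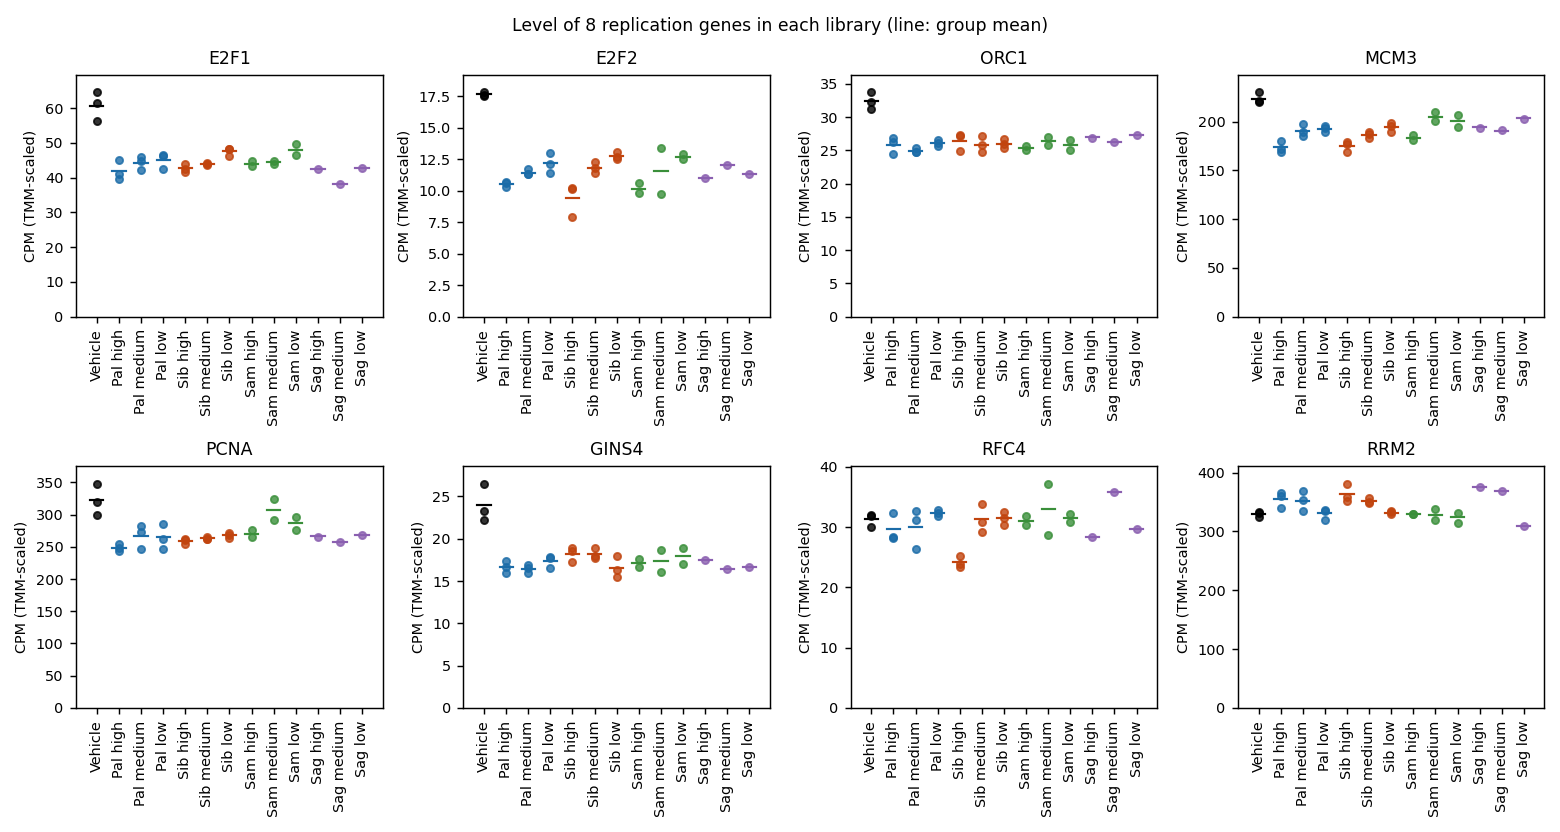
TMM-scaled CPM of 8 genes in each of the 30 libraries (points) with the group mean (line), by treatment group on the horizontal axis, with vertical axes from 0. E2F1, E2F2, ORC1, MCM3 and GINS4 are lower in every extract library than in vehicle, and RFC4 is lowest at the high dose of Sibjeondaebo-tang. RRM2 overlaps vehicle or lies above it except in 4 extract libraries, which are below, the lowest being the low-dose Sagunja-tang library.

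At the replication fork, 6 of 13 genes were called lower at the high dose of Palmul-tang and 9 of 13 at that of Sibjeondaebo-tang. Of all tested genes 15.6% and 16.7% were lower there. With Samul-tang 7, 2 and 2 of the 13 were called lower from high to low dose (8.69%, 9.57% and 4.79% of all tested genes). PCNA, the sliding clamp, was at 348, 320.0 and 299 CPM in vehicle, and its 3 vehicle libraries were spread widely. Palmul-tang gave high-dose levels of 243, 248 and 254, medium-dose levels of 283, 273 and 247 and low-dose levels of 247, 286 and 262, and Sibjeondaebo-tang high-dose levels of 262, 254 and 260.0, medium-dose levels of 265, 263 and 263 and low-dose levels of 264, 272 and 268. All of these lay below the lowest vehicle library. Samul-tang gave high-dose levels of 276 and 265, medium-dose levels of 324 and 292 and low-dose levels of 297 and 276, of which a medium-dose library lay within the vehicle range, and Sagunja-tang gave a high-dose level of 266, a medium-dose level of 258 and a low-dose level of 269. The log2 difference was -0.38 ± 0.056 (adjusted p = 5.78e-06) at the high dose of Palmul-tang, -0.32 ± 0.056 (adjusted p = 4.46e-05) at that of Sibjeondaebo-tang and -0.25 ± 0.063 (adjusted p = 0.00464) at that of Samul-tang.

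RFC4 is a subunit of the clamp loader. It was at 30.0, 32 and 31.8 CPM in vehicle and high-dose levels of 28.2, 32.4 and 28.4, medium-dose levels of 26.3, 32.7 and 31.2 and low-dose levels of 32.9, 32.4 and 31.8 with Palmul-tang. In Sibjeondaebo-tang it was at high-dose levels of 23.4, 25.2 and 23.9, medium-dose levels of 30.8, 29.2 and 33.8 and low-dose levels of 30.3, 31.6 and 32.5. The 3 high-dose Sibjeondaebo-tang libraries were the lowest of the 30. With Samul-tang there were high-dose levels of 30.3 and 31.8, medium-dose levels of 37.2 and 28.7 and low-dose levels of 30.8 and 32.1, and Sagunja-tang a high-dose level of 28.4, a medium-dose level of 35.8 and a low-dose level of 29.7. RFC4 fell at the high dose of Sibjeondaebo-tang by -0.37 ± 0.08 (adjusted p = 0.000511), while its difference at the high dose of Palmul-tang was -0.075 ± 0.078 (adjusted p = 0.505). The other loader subunits had log2 differences at the high dose of Sibjeondaebo-tang of -0.18 for RFC2, -0.26 for RFC3 and -0.13 for RFC5, of which RFC3 passed the test.

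POLE, the catalytic subunit of the leading-strand polymerase, had tight replicates at 97.7, 96.3 and 99.7 CPM in vehicle. Palmul-tang gave high-dose levels of 87.5, 87.2 and 85.5, medium-dose levels of 86.1, 88.3 and 87.7 and low-dose levels of 87.5, 89.4 and 91.6. In Sibjeondaebo-tang there were high-dose levels of 75.6, 80.5 and 74.5, medium-dose levels of 84.7, 89 and 89 and low-dose levels of 90.8, 92.7 and 89.3. Every one of these was below vehicle, and the high-dose Sibjeondaebo-tang libraries were the lowest. The Samul-tang libraries showed high-dose levels of 84.8 and 87.9, medium-dose levels of 87.5 and 90.5 and low-dose levels of 93.7 and 94.7, and Sagunja-tang a high-dose level of 84.4, a medium-dose level of 87.4 and a low-dose level of 89.6. The log2 difference was -0.35 ± 0.041 (adjusted p = 9.16e-08) at the high dose of Sibjeondaebo-tang and -0.17 ± 0.041 (adjusted p = 0.0014) at that of Palmul-tang. POLD1, the catalytic subunit of the lagging-strand polymerase, fell by -0.52 ± 0.075 (adjusted p = 2.76e-06) and -0.39 ± 0.074 (adjusted p = 0.000157). POLA1, which extends primers, had 0.044 ± 0.054 (adjusted p = 0.565) and 0.03 ± 0.054 (adjusted p = 0.713), and its partner POLA2 fell by -0.19 ± 0.064 (adjusted p = 0.0205) and -0.18 ± 0.064 (adjusted p = 0.0285). The primase PRIM1 fell by -0.25 ± 0.076 (adjusted p = 0.0111) at the high dose of Sibjeondaebo-tang and had -0.18 ± 0.075 (adjusted p = 0.0661) at that of Palmul-tang.

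LIG1 joins Okazaki fragments. Vehicle libraries were at 46.3, 48.6 and 46.9 CPM, Palmul-tang libraries at high-dose levels of 36.9, 37.4 and 37.3, medium-dose levels of 41.2, 39.2 and 36.8 and low-dose levels of 39.1, 37.7 and 36.7, and Sibjeondaebo-tang libraries at high-dose levels of 37.4, 37.7 and 33.1, medium-dose levels of 35.8, 38.9 and 38.3 and low-dose levels of 37.2, 38.6 and 37. In Samul-tang there were high-dose levels of 40.3 and 38.8, medium-dose levels of 36.9 and 42.9 and low-dose levels of 39.3 and 39, and Sagunja-tang a high-dose level of 34.2, a medium-dose level of 37.5 and a low-dose level of 38.3. No extract library reached the vehicle range. LIG1 fell by -0.32 ± 0.057 (adjusted p = 0.000132) at the low and -0.35 ± 0.057 (adjusted p = 2.28e-05) at the high dose of Palmul-tang. The flap endonuclease FEN1, which trims the fragments first, fell by -0.29 ± 0.061 (adjusted p = 0.000577) at the high dose. POLE2, the second subunit of the leading-strand polymerase, had -0.041 ± 0.08 (adjusted p = 0.742) there.

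The enzymes that supply deoxynucleotides did not move together. RRM2, the regulated subunit of ribonucleotide reductase, was at 333, 332 and 325 CPM in vehicle and high-dose levels of 340.0, 366 and 361, medium-dose levels of 335, 368 and 353 and low-dose levels of 320.0, 335 and 336 with Palmul-tang. Sibjeondaebo-tang gave high-dose levels of 351, 359 and 381, medium-dose levels of 349, 350.0 and 356 and low-dose levels of 335, 329 and 333, Samul-tang high-dose levels of 329 and 329, medium-dose levels of 338 and 319 and low-dose levels of 315 and 332, and Sagunja-tang a high-dose level of 376, a medium-dose level of 369 and a low-dose level of 310.0. The high and medium doses of Palmul-tang and Sibjeondaebo-tang were above all vehicle libraries, and the low doses of these formulas and Samul-tang overlapped them. Of the 27 extract libraries, 4 were below all vehicle libraries. RRM2 rose at the high dose of Sibjeondaebo-tang by 0.14 ± 0.044 (adjusted p = 0.0122) with TMM factors, but with library totals alone the log2 difference was -0.032 (edgeR adjusted p = 0.613). Under that scaling the median of all tested genes moved by -0.18 in this comparison, and the median of the 45 genes was -0.38, or -0.20 relative to it. RRM1, the large subunit, was at 118, 115 and 113 CPM in vehicle and high-dose levels of 99.4, 104 and 107, medium-dose levels of 101, 102 and 110.0 and low-dose levels of 101, 107 and 105 with Palmul-tang. The Sibjeondaebo-tang libraries showed high-dose levels of 113, 112 and 117, medium-dose levels of 109, 104 and 110.0 and low-dose levels of 102, 100.0 and 108, Samul-tang high-dose levels of 105 and 106, medium-dose levels of 106 and 108 and low-dose levels of 106 and 105, and Sagunja-tang a high-dose level of 109, a medium-dose level of 110.0 and a low-dose level of 106. RRM1 was below every vehicle library in 26 of the 27 extract libraries. The exception, replicate 3 of the high dose of Sibjeondaebo-tang, lay within the vehicle range. RRM1 fell at the high dose of Palmul-tang by -0.16 ± 0.044 (adjusted p = 0.00538). TK1, the salvage kinase for thymidine, fell by -0.41 ± 0.064 (adjusted p = 1.09e-05) at the high dose of Palmul-tang and -0.42 ± 0.064 (adjusted p = 7.83e-06) at that of Sibjeondaebo-tang. TYMS, which makes thymidylate, had -0.076 ± 0.046 (adjusted p = 0.219) and -0.044 ± 0.046 (adjusted p = 0.486).

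Of the 5 chromatin, checkpoint and histone RNA genes, UHRF1 was called lower at the high dose of all 3 tested formulas. UHRF1, which carries DNA methylation through replication, was at 91.3, 102 and 99.8 CPM in vehicle and high-dose levels of 75.4, 80 and 80.2, medium-dose levels of 81.8, 83.6 and 82.6 and low-dose levels of 91.8, 80.5 and 81.4 with Palmul-tang. In Sibjeondaebo-tang there were high-dose levels of 79.7, 78.6 and 75.2, medium-dose levels of 77.6, 79.9 and 80.4 and low-dose levels of 85.1, 81.1 and 84.7, Samul-tang high-dose levels of 77.1 and 77.4, medium-dose levels of 68.3 and 80.6 and low-dose levels of 89.4 and 80.2, and Sagunja-tang a high-dose level of 70.2, a medium-dose level of 78.8 and a low-dose level of 77.7. A low-dose Palmul-tang library lay within the vehicle range and the other extract libraries below it. The log2 difference was -0.32 ± 0.057 (adjusted p = 7.21e-05) at the high dose of Palmul-tang and -0.33 ± 0.057 (adjusted p = 3.46e-05) at that of Sibjeondaebo-tang. CLSPN, the claspin checkpoint mediator, fell at the medium dose of Samul-tang by -0.28 ± 0.09 (adjusted p = 0.0278), and CHAF1B, a subunit of the histone chaperone CAF-1, at the low dose of Palmul-tang by -0.20 ± 0.072 (adjusted p = 0.0369). Its partner CHAF1A had 0.024 ± 0.045 (adjusted p = 0.713) at the high dose of Sibjeondaebo-tang, where library totals gave -0.148 (edgeR adjusted p = 0.0222). SLBP, which binds histone mRNA, had -0.11 ± 0.054 (adjusted p = 0.126) there.

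Between doses few of the 45 genes passed the test, and nearly all that did were in Sibjeondaebo-tang. From the low to the high dose, 1 gene was lower and 0 higher with Palmul-tang (3.03% and 3.75% of all tested genes), with a median log2 difference over the 45 of -0.026. With Sibjeondaebo-tang 7 were lower and 2 higher (9.44% and 10.4%), with a median of -0.024. As shares of the 45 genes these are 15.6% lower, above that background, and 4.44% higher, below it. Without the library with fibroblast markers 4 were lower, a share near that of all tested genes. With Samul-tang 0 were called by edgeR or DESeq2 (0.715% and 0.709% of all tested genes by edgeR), 6 had an unadjusted p under 0.05, and the median was -0.043 with SEs of 0.049 to 0.13. These medians are small beside the -0.19, -0.17 and -0.15 between vehicle and the low dose of the same formulas.

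From low to medium, 0 genes were called with Palmul-tang by edgeR and DESeq2 (0.0373% of all tested genes lower and 0.242% higher by edgeR, and 1 of the 45 at an unadjusted p under 0.05), and 0 with Sibjeondaebo-tang by both (0.0124% and 0.0995%, and 3 of the 45), also without the library with fibroblast markers. From medium to high, Palmul-tang gave 0 by edgeR and 1 by DESeq2 (1.1% and 1.16%, and 3 of the 45 at an unadjusted p under 0.05). Sibjeondaebo-tang gave 5 lower and 0 higher (6.07% and 5.04%), namely E2F2, E2F8, ORC6, RFC4 and POLE. The E2F2 call was lost without replicate 3 of the high dose or replicate 2 of the medium dose.

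**Figure D3:**
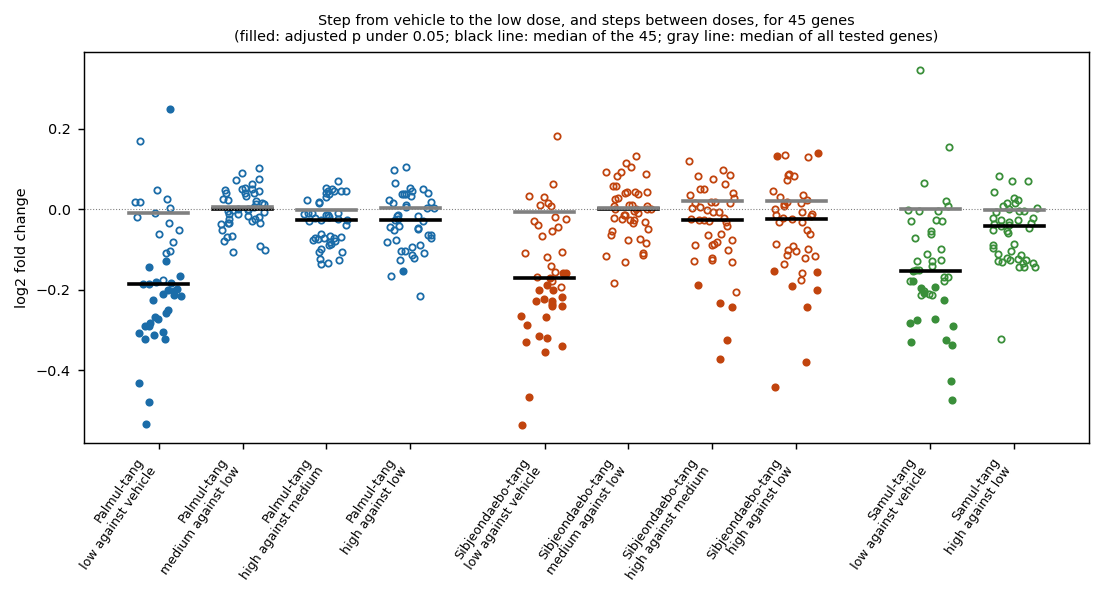
Log2 fold changes of the 45 genes (points) from vehicle to the low dose and between doses, for 3 formulas, with filled points for an adjusted p under 0.05. The median of the 45 genes (black) lies at -0.19, -0.17 and -0.15 for the first step and within 0.05 of 0 between doses, where the median of all tested genes is gray.

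The genes called between the high and low dose of Sibjeondaebo-tang were E2F1, E2F2, E2F8, ORC6, MCM3, RFC4 and POLE, which fell, and RRM1 and RRM2, which rose. The largest was E2F2, whose log2 difference was -0.44 ± 0.09 (adjusted p = 0.000578), beside -0.22 ± 0.09 (adjusted p = 0.168) for Palmul-tang and -0.32 ± 0.11 (adjusted p = 0.172) for Samul-tang. RFC4 fell by -0.38 ± 0.079 (adjusted p = 0.000777), beside -0.12 ± 0.078 (adjusted p = 0.439) and -0.021 ± 0.094 (adjusted p = 0.979). POLE fell by -0.24 ± 0.041 (adjusted p = 5.2e-05), beside -0.045 ± 0.041 (adjusted p = 0.631) and -0.13 ± 0.049 (adjusted p = 0.319). MCM3 was called in both Palmul-tang, at -0.15 ± 0.042 (adjusted p = 0.0229), and Sibjeondaebo-tang, at -0.15 ± 0.042 (adjusted p = 0.00941), and its difference in Samul-tang was -0.13 ± 0.052 (adjusted p = 0.307).

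E2F1, E2F8 and ORC6 fell by smaller amounts in Sibjeondaebo-tang, at -0.16 ± 0.055 (adjusted p = 0.0423), -0.20 ± 0.056 (adjusted p = 0.00999) and -0.19 ± 0.053 (adjusted p = 0.0103). Without the low-dose library that held fibroblast markers, 5 genes were called in place of 9, 4 lower and 1 higher. Of 16048 tested genes, 1239 were lower and 1189 higher without that library. The share of the 45 called lower was thus near that of all tested genes, and the share called higher was below it. E2F1 then had an adjusted p of 0.118, E2F8 of 0.0549, ORC6 of 0.0676 and RRM2 of 0.0776, all by edgeR, and the part of those markers in these calls was not tested. E2F1 lost its call without any single one of the 6 libraries of the comparison. The Palmul-tang call of MCM3 was lost without replicate 1 or replicate 2 of either dose. E2F2, MCM3, RFC4 and POLE in Sibjeondaebo-tang kept their calls under each of 13 alternatives. The rise of RRM2, 0.13 ± 0.044 (adjusted p = 0.032), was lost under 10 of 13 alternatives, and that of RRM1, 0.14 ± 0.043 (adjusted p = 0.0206), under 7 of 13.

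**Figure D4:**
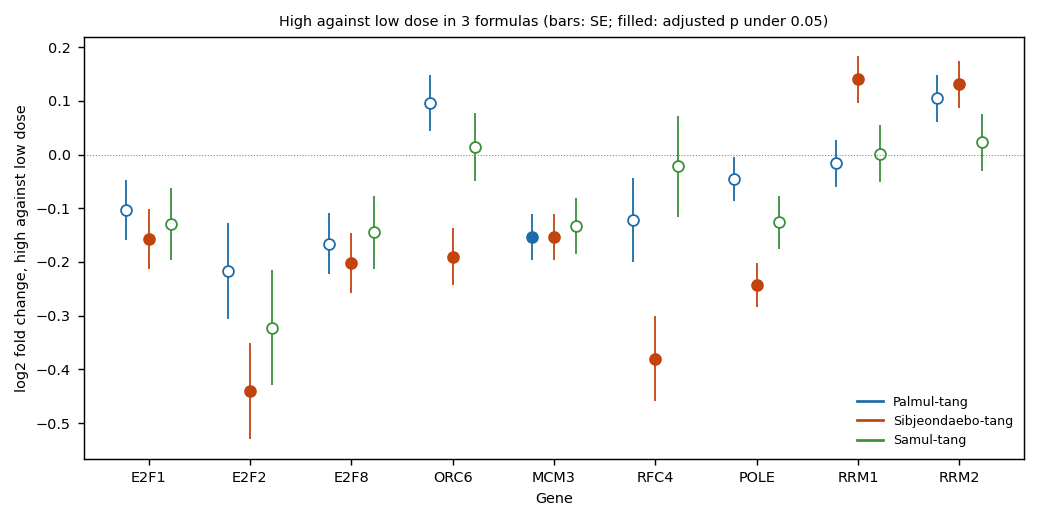
Log2 fold change of the high against the low dose for the 9 genes called in Sibjeondaebo-tang, in Palmul-tang, Sibjeondaebo-tang and Samul-tang, with SE bars and filled points for an adjusted p under 0.05. E2F2, RFC4 and POLE reach -0.44, -0.38 and -0.24 in Sibjeondaebo-tang, and ORC6 lies on opposite sides of 0 in Palmul-tang and Sibjeondaebo-tang.

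The formulas were compared directly at matched doses. At the high dose, Sibjeondaebo-tang had 3 of the 45 genes lower than Palmul-tang and 1 higher (4.72% and 1.75% of all tested genes). Of the 45 genes these are 6.67% and 2.22%, both near the shares of all tested genes. ORC6 was lower by -0.28 ± 0.053 (adjusted p = 0.00072), RFC4 by -0.30 ± 0.081 (adjusted p = 0.0208) and POLE by -0.17 ± 0.041 (adjusted p = 0.0064), and RRM1 was higher by 0.14 ± 0.044 (adjusted p = 0.0457). The RRM1 call was lost under 12 of 13 alternatives, and the RFC4 call without Palmul-tang high replicate 2 or without replicate 1 or 3 of the high dose of Sibjeondaebo-tang. At the medium dose 0 were called by edgeR and DESeq2 (0.0311% of all tested genes lower and 0.0% higher by edgeR), with 2 of the 45 at an unadjusted p under 0.05. At the low dose 0 were called by both (0.0% either way), with 0 at an unadjusted p under 0.05, and edgeR called 0 also without the library with fibroblast markers.

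The difference between the dose responses themselves was tested as an interaction. Between Sibjeondaebo-tang and Palmul-tang 1 of the 45 genes was called (2.22%), near the 1.95% of all tested genes called lower (0.0497% were called higher). The gene was ORC6. Its log2 difference between the dose responses was -0.29 ± 0.075 (adjusted p = 0.0354), and it was lost without any 1 of 7 libraries among 19 alternatives. For RFC4 the value was -0.26 ± 0.11 (adjusted p = 0.359), for POLE -0.20 ± 0.058 (adjusted p = 0.0732) and for E2F2 -0.22 ± 0.13 (adjusted p = 0.546), so the larger values in Sibjeondaebo-tang are not shown to differ from those in Palmul-tang. Between Palmul-tang and Samul-tang 0 were called by edgeR and DESeq2 (0.0% of all tested genes lower and 0.0124% higher by edgeR), with 0 at an unadjusted p under 0.05. Between Sibjeondaebo-tang and Samul-tang 0 were called by both (1.58% and 0.0995%), with 2 at an unadjusted p under 0.05, and 0 by edgeR without the library with fibroblast markers. The SEs of these interactions over the 45 genes were 0.058 to 0.17 on the log2 scale.

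Sagunja-tang had 1 library per dose, so its differences have no test and no replicate check. The median log2 difference of the 45 genes from the vehicle mean was -0.16, -0.14 and -0.18 from high to low dose, against 0.0013, 0.0 and -0.0019 for all tested genes. Lower by 1.2-fold or more were 15, 14 and 12 of the 45 (20.2%, 16.4% and 16.4% of all tested genes). Higher by that fold were 0, 1 and 0 (15.7%, 15.1% and 13.4%), the 1 being CDC7. E2F2 was at a log2 difference of -0.68, -0.55 and -0.64, and GINS4 at -0.45, -0.54 and -0.52, from high to low dose. Between the high and low dose the median of the 45 genes was -0.0046, with 1 lower and 2 higher by 1.2-fold (17.5% and 15.3%).

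Lists of neighbouring pathways, also chosen with earlier results of these data known, were examined beside the 45 genes. Of 24 tested genes of RB-E2F and cyclin control, 7 (29.2%) were lower and 0 higher at the high dose of Palmul-tang, where 15.6% of all tested genes were lower and 16.3% higher, with a median of -0.063. CDC25A, the phosphatase that activates CDK2, fell by -0.42 ± 0.059 (adjusted p = 2.65e-06), and CDK2 itself by -0.33 ± 0.051 (adjusted p = 1.02e-05). Of 32 further genes of the replication machinery, 8 (25.0%) were lower and 4 (12.5%) higher there, with a median of -0.080. At the high dose of Sibjeondaebo-tang 10 of these (31.2%) were lower and 4 (12.5%) higher, against 16.7% and 19.3% of all tested genes, and CHTF18, a subunit of an alternative clamp loader, fell by -0.91 ± 0.1 (adjusted p = 9.58e-08) and RECQL4, a helicase of origin firing, by -0.64 ± 0.066 (adjusted p = 6.94e-09). Between the high and low dose of that formula CHTF18 fell by -0.91 ± 0.1 (adjusted p = 1.44e-07) and RECQL4 by -0.52 ± 0.066 (adjusted p = 4.88e-07), and without the library with fibroblast markers by -0.92 and -0.55.

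Of nucleotide supply, 18 other genes were tested. From the low to the high dose of Sibjeondaebo-tang 9 of the 18 rose and 0 fell (10.4% and 9.44% of all tested genes), with a median of 0.11. Without the library with fibroblast markers 9 rose and 0 fell also (1189 and 1239 of 16048 tested genes). With Palmul-tang 2 rose and 0 fell (3.75% and 3.03%), with a median of 0.047, and with Samul-tang 0 were called (0.709% and 0.715%). In the interactions of Sibjeondaebo-tang with Palmul-tang and with Samul-tang 0 of the 18 were called (1.95% and 1.58% of all tested genes lower, 0.0497% and 0.0995% higher). In Sibjeondaebo-tang IMPDH1, of guanine nucleotide synthesis, rose by 0.47 ± 0.076 (adjusted p = 3.02e-05) and GART, of purine synthesis, by 0.22 ± 0.04 (adjusted p = 0.000146). UMPS, of pyrimidine synthesis, rose there by 0.20 ± 0.043 (adjusted p = 0.000998). Mean IMPDH1 went from 20.49 CPM at the low to 27.6 at the high dose of Palmul-tang, from 19.81 to 25.07 in Samul-tang and from 20.01 to 29.35 in Sagunja-tang. In the same order GART went from 84.32 to 96.04, 82.49 to 90.27 and 84.74 to 103.0. UMPS went from 49.72 to 50.73, 48.73 to 52.53 and 50.45 to 53.49. Against vehicle, IMPDH1 was called lower at the low dose of Sibjeondaebo-tang, with -0.32 ± 0.076 (adjusted p = 0.00268), and had 0.15 ± 0.075 (adjusted p = 0.125) at its high dose. UMPS was likewise called lower at the low dose, with -0.13 ± 0.043 (adjusted p = 0.0268), a call lost without the library with fibroblast markers (edgeR adjusted p = 0.056), and had 0.07 ± 0.043 (adjusted p = 0.209) at the high dose. GART had -0.0053 ± 0.04 (adjusted p = 0.947) at the low dose and rose above vehicle at the high dose by 0.21 ± 0.04 (adjusted p = 9.82e-05).

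Among 12 genes of chromatin assembly, 4 (33.3%) were lower and 2 (16.7%) higher at the high dose of Palmul-tang, the latter near the 16.3% of all tested genes, of which 15.6% were lower. There the histone chaperone ASF1B fell by -0.72 ± 0.073 (adjusted p = 6.71e-09) and its paralog ASF1A rose by 0.16 ± 0.052 (adjusted p = 0.022). Among 15 checkpoint and fork repair genes 6 (40.0%) were lower and 1 (6.67%) higher, including the mismatch repair gene MSH6 at -0.37 ± 0.043 (adjusted p = 9.35e-08).

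Genes of mitosis, which act later in the cycle, were called in both directions at the high doses of Palmul-tang and Sibjeondaebo-tang. At that of Samul-tang 0 of 26 were lower and 3 (11.5%) higher. The latter is near the 9.82% of all tested genes, of which 8.69% were lower. Of 26, 6 (23.1%) were lower and 10 (38.5%) higher at the high dose of Palmul-tang, against 15.6% and 16.3% of all tested genes, with a median of 0.067. At that of Sibjeondaebo-tang 4 (15.4%) were lower, near the 16.7% of all tested genes, and 10 (38.5%) higher, against 19.3%, with a median of 0.055. TPX2, a spindle factor, rose by 0.25 ± 0.054 (adjusted p = 0.000609) and 0.34 ± 0.054 (adjusted p = 1.3e-05), and FOXM1, a transcription factor of mitosis genes, by 0.16 ± 0.05 (adjusted p = 0.0159) and 0.30 ± 0.05 (adjusted p = 2.13e-05). CDK1, the mitotic kinase, fell by -0.30 ± 0.056 (adjusted p = 0.000112) and -0.22 ± 0.056 (adjusted p = 0.00222). CENPE averaged 41.45 CPM in vehicle and 52.97, 55.71 and 37.46 at the low, medium and high dose of Sibjeondaebo-tang. Without the library with fibroblast markers it fell from the low to the high dose by -0.49 ± 0.064 (edgeR adjusted p = 2.27e-06). Its interactions were then -0.36 with Palmul-tang (edgeR adjusted p = 0.0205) and -0.38 with Samul-tang (edgeR adjusted p = 0.0282). The difference between the lists was not tested.

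**Figure D5:**
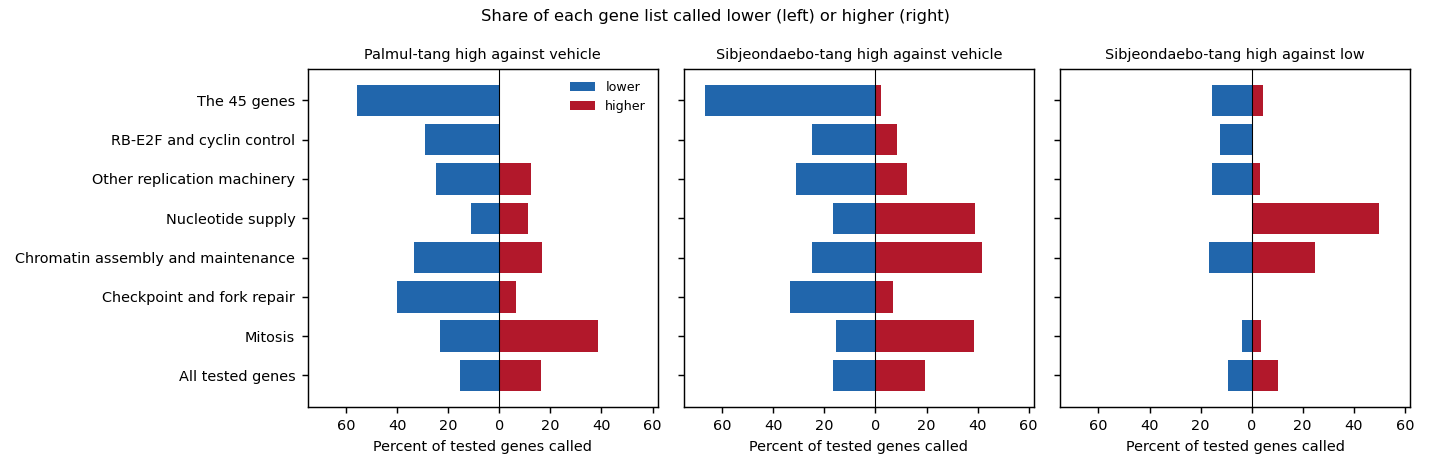
Percent of the tested genes of each list called lower (blue, left of 0) or higher (red, right of 0) in 3 comparisons, with all 16083 tested genes at the bottom. The 45 genes reach 55.6% and 66.7% lower against vehicle at the high doses, the mitosis list is higher more often than lower there, and 50.0% of the nucleotide supply list rose with the dose of Sibjeondaebo-tang.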

How the data were processed

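The deposited table holds the authors' expected counts for 60675 gene rows; 240 of its columns belong to no sample used here. RSEM 1.3.3, STAR 2.7.3a, Trim Galore 0.6.5 and FastQC 0.11.9, with hg38/GRCh38, are named in the submitters' processing notes; the annotation release and the strand setting of the counting are not given in the sources used here. Libraries were directional, per the labels' protocols. Of the deposited values, 8.558% were not whole. For 9 of the 45 genes (CCNE2, DBF4, ORC6, MCM7, GINS3, GINS4, RFC5, TYMS, UHRF1) most values were not whole, 6 share exon sequence with another gene on the same strand and 17 with one on the opposite strand (GENCODE 29), so their values are less certain.

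Counts were rounded. Genes passing filterByExpr (minimum count 10, minimum total 15) were tested with edgeR 4.0.16 (R 4.3.3): TMM factors, 1 robust quasi-likelihood fit over 27 libraries of 10 groups (17 residual degrees of freedom), 22 two-sided comparisons, Benjamini-Hochberg adjustment over 16083 genes at 0.05. SEs are |log2 fold change| over √F, and levels are CPM scaled by TMM factors of all 30 libraries. Symbols matched 41209 rows. The fit was tested on simulated data.

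The 45 genes and all lists were chosen with earlier results of these data known. Genes given in every library are 8 preset ones (E2F1, E2F2, CCNE2, CDC6, MCM3, PCNA, RRM2, UHRF1), up to 6 called lower in all 9 comparisons with vehicle by mean difference, up to 6 per formula called between high and low dose by adjusted p, and up to 6 called between formulas; other lists give up to 4 genes each by adjusted p. Alternatives were DESeq2 1.42.0, median-ratio factors, library totals, no filter, compared groups alone, an offset for GC content and length, a replicate block, and leaving out each library.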

Additional observations from a re-analysis of the deposited data

Results flagged for a closer look

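ORC6 was singled out because its dose response differed between a pair of formulas in a direct test. It was the 1 gene of the 45 called there (2.22%), a share near the 1.95% of all tested genes called lower. The log2 difference of the high against the low dose was -0.19 ± 0.053 (SE) in Sibjeondaebo-tang and 0.10 ± 0.053 in Palmul-tang, a difference of -0.29 with adjusted p = 0.0354 by edgeR. ORC6 was at 38.5, 36.1 and 35 CPM at the high and 40.6, 41 and 43.5 at the low dose of Sibjeondaebo-tang, and at 43.9, 43.7 and 45.4 and 39.7, 44.4 and 40.0 in Palmul-tang. Without the low-dose Sibjeondaebo-tang library that held fibroblast markers the value was -0.255 (edgeR adjusted p = 0.118). Over 19 alternatives the highest adjusted p was 0.122. The estimated counts of ORC6 were not whole in any library.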

How the results depend on the processing

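Counts of genes called among the 45 moved by less than 1.5 times under most alternatives. Leaving out 1 library gave 23 to 26 at the high, 19 to 23 at the medium and 20 to 28 at the low dose of Palmul-tang against vehicle, 28 to 30, 22 to 26 and 19 to 24 for Sibjeondaebo-tang, and 15 to 24, 6 to 19 and 5 to 15 for Samul-tang. The high against the low dose gave 0 to 1 for Palmul-tang, 5 to 7 for Sibjeondaebo-tang and 0 for Samul-tang, the high against the medium dose of Sibjeondaebo-tang 4 to 5, Sibjeondaebo-tang against Palmul-tang at the high dose 2 to 3, and the interaction of these formulas 0 to 2. Where a group was left with 1 library, that library is assumed to vary like the other groups.

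Library totals without TMM factors gave 24 at the low dose of Samul-tang, 14 between doses of Sibjeondaebo-tang (all lower), 0 between doses of Palmul-tang, Sagunja-tang medians of -0.242, -0.207 and -0.242, and reversed CHAF1A (-0.148) and RRM2 (-0.032) at the high dose of Sibjeondaebo-tang; they shift all genes. Fitting the compared groups alone gave 3 at the medium dose of Samul-tang and 0 between doses of Palmul-tang, as did no filter. The offset for GC content and length gave 2 there and 1 between the high and medium dose of Palmul-tang, as did DESeq2 (1). The interaction of Sibjeondaebo-tang and Palmul-tang gave 2 with DESeq2, median-ratio factors, library totals, compared groups alone and the offset; that of Sibjeondaebo-tang and Samul-tang gave 1 with library totals, no filter and compared groups alone. The causes were not tested.

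Replicate numbers did not pair the samples: of 53 correlations of same-numbered deviations 2 were above 0.1 (-0.17 to 0.11). With a replicate block, 27 genes were called at the high dose of Palmul-tang, 25 at the low dose of Sibjeondaebo-tang and 28, 16 and 17 with Samul-tang, and none of the 237 calls was lost.

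Over all tested genes, the count at the medium dose of Samul-tang fell from 3188 to 261 with compared groups alone. Low against medium gave 45 with Palmul-tang (75 DESeq2, 163 no filter) and 18 with Sibjeondaebo-tang (55 DESeq2, 6 totals, 174 no filter, 106 compared groups alone). Samul-tang high against low gave 229 (376 no filter). The formulas gave 5 at the medium dose (25 DESeq2, 14 totals, 168 no filter, 26 block) and 0 at the low dose (72 no filter, 3 compared groups alone). The interactions gave 322 (598 totals, 562 no filter), 270 (434 totals, 543 no filter, 406 compared groups alone) and 2 (1 totals, 1 median-ratio, 85 no filter).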
